A study of Rattus norvegicus with 6 samples.

Results

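The miR-26 family and the genes that host it were followed in 6 clonal lines of rat INS-1(832/13)::mCherry cells, an insulin-secreting insulinoma line with an mCherry reporter on an insulin transgene. The members were the rows with the symbols Mir26a, Mir26b, Ctdsp1, Ctdsp2 and Ctdspl, 5 of the 32883 genes listed, each read from both deposited tables of small RNA counts. A second miR-26a gene, listed as Mir26a-2, lay outside this choice and is given beside Mir26a, because it is known to give the same mature miR-26a-5p. The Control group held lines 5-9, 2 and 16 (n = 3), which per the study's methods lack the Prader-Willi syndrome (PWS) domain on the silent maternal copy alone. The PWS group held lines 3, 19-1 and 19-4 (n = 3), which lack it on both copies. Line 5-9 was the parent of the other lines: 2 and 16 received a control EGFP vector, the PWS lines a further edit of the paternal copy, and all 6 carry the maternal deletion. The deletion in line 3 is larger, as it starts from an alternate site. Lines 19-1 and 19-4 are subclones of 1 edited line, each line gave 1 library, and all were grown untreated in medium with 7.5 mM glucose.

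miR-26 is a small miRNA family conserved among vertebrates. A miRNA is cut from a hairpin, loaded into an Argonaute protein and guided to messenger RNAs mainly by its seed, bases 2 to 8. Each miR-26 gene lies within a gene of the Ctdsp group, Mir26a in Ctdspl, Mir26a-2 in Ctdsp2 and Mir26b in Ctdsp1, and is transcribed with it. The Ctdsp genes encode small phosphatases that act on the C-terminal domain of RNA polymerase II and that work with the repressor REST to keep neuronal genes silent in other cells. miR-26 is known to lower CTDSP2, so host and miRNA can act on one another, and miR-26 has also been described as acting on Tet and Tdg, enzymes of DNA demethylation, in the pancreas.

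The mature sequences are shown first because they set what the read counts can separate. They are RefSeq sequences (build GRCr8, plus strand), and they were found for 2 of the 5 members, Mir26a and Mir26b. The seed is in capitals.
rno-miR-26a-5p: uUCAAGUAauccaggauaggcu
rno-miR-26b-5p: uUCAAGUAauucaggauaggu
rno-miR-26a-3p: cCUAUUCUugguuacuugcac
rno-miR-26b-3p: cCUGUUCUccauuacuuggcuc
Both 5p forms have the seed UCAAGUA, and no other of the 724 mature rat miRNAs in the RefSeq table carried it. They have lengths of 22 and 21 bases, and over the 21 positions compared 19 were identical. The substitutions were C11U and C21U, with the base of miR-26a first, counted from the 5′ end. The 3p forms differed at 7 of 21 positions.

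The hairpins are shown because a read is counted for a gene by where it lies. Both mature arms are in capitals.
Mir26a hairpin, chr8:127633048-127633137: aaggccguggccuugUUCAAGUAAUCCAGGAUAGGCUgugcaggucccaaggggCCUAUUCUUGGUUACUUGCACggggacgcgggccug
Mir26b hairpin, chr9:83425709-83425793: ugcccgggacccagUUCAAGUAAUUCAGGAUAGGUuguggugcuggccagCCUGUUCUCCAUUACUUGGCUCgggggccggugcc
In RefSeq the Mir26a hairpin lies inside Ctdspl and the Mir26b hairpin inside Ctdsp1, on the same strand as the host in each case. Mir26a-2 was not matched in this table. The deposited counts were made on another build, Rnor_6.0, so these positions locate the sequences and were not used to assign reads.

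The libraries held 7373691 to 16480475 reads, of which 88.4 to 89.9% fell in miRNA genes. The β-cell markers listed for this comparison all had reads (8 of 8), with Mir375 the most abundant, and the markers of other islet cells (Gcg, Sst, Ppy and Ghrl) had none in any line. The β-cell sum of 657748 to 806440 normalized reads in Control and 558208 to 833585 in PWS lines was nearly all Mir375, and the other 7 markers, read as messenger RNA fragments, had 42 to 1114 reads each over the 6 lines. Blood markers summed to 44.3 to 73.2 normalized reads in Control and 43.1 to 76.5 in PWS lines. This was nearly all Mir142, with 387 reads, while Mir223 had 4 and Mir451 was absent from the counted genes. The endothelial Mir126a came to 13.9 to 32.5 and 18.5 to 35.6. The mesenchymal Mir143 came to 13.1 to 39.4 and 35.7 to 48.8, while Mir145 had no read. The muscle marker Mir206 had 2 reads, and the other muscle markers and the liver marker Mir122 were absent from the counted genes. Their part in the results below was not tested. Values below are normalized reads, that is, reads divided by the size factor of the library.

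Mir26a was an abundant miRNA in these cells, number 22 by mean among 350 miRNA genes with reads. Its level was 140130 normalized reads in Control line 5-9, 113638 in line 2 and 110444 in line 16. In the PWS group it was 103256 in line 3, 110360 in line 19-1 and 79301 in line 19-4. Every PWS line thus lay below every Control line, but line 19-1 fell short of line 16 by only 83.5 normalized reads, and line 5-9 and line 19-4 stood apart from the other lines of their groups. Means were 121404 ± 16296 in Control and 97639 ± 16274 in PWS lines (SD, n = 3). The log2 fold change, PWS minus Control on log2(normalized reads + 1), was -0.32 ± 0.21 (SE), with a 95% interval of -0.75 to 0.11 and a limma adjusted p of 0.860. The difference did not pass the test, and the interval spans both a lower level of more than 0.7 on the log2 scale and no difference.

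Mir26a-2, number 21 by mean, had nearly the same values as Mir26a. In the Control group it stood at 139891 in line 5-9, 115265 in line 2 and 112694 in line 16. In the PWS group it stood at 103269 in line 3, 110892 in line 19-1 and 79976 in line 19-4. It differed by -0.33 ± 0.20 (SE) on the log2 scale, at a limma adjusted p of 0.860. The groups again did not overlap, a pattern with all PWS lines lower that 6.29% of the 4292 tested genes showed, while 4.87% had all PWS lines higher. It depended on the scaling: with TMM or upper-quartile scaling both miR-26a genes overlapped between groups, and when reads were scaled to the sum of miRNA genes Mir26a overlapped and Mir26a-2 did not.

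Mir26b, number 42 by mean, was lower than Mir26a in every line. Its Control levels were 31414 in line 5-9, 27684 in line 2 and 24283 in line 16. Its PWS levels were 27776 in line 3, 29529 in line 19-1 and 17848 in line 19-4. Here the groups overlapped, with lines 3 and 19-1 above Control line 16 and only line 19-4 below the Control range. The means were 27794 ± 3567 in Control and 25051 ± 6299 in PWS lines (SD, n = 3). The log2 difference was -0.18 ± 0.23 (SE), with a 95% interval of -0.67 to 0.31 and a limma adjusted p of 0.918.

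**Figure D1:**
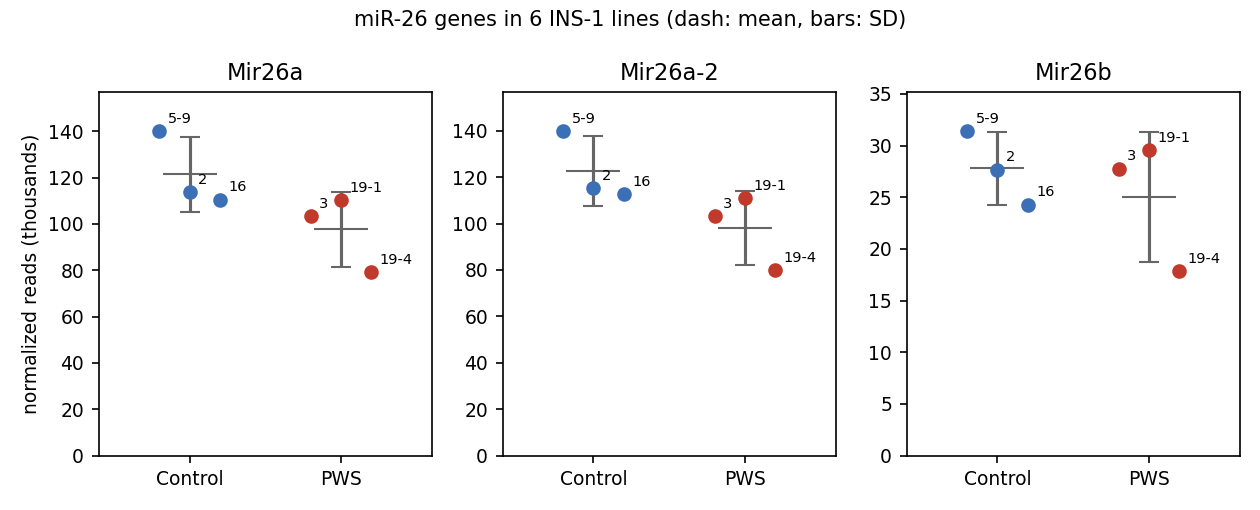
Normalized reads (axis in units of 1000, from 0) of Mir26a, Mir26a-2 and Mir26b in each line, with the group mean (dash) and SD (bars, n = 3). Line 5-9 is highest and line 19-4 lowest in each panel, and Mir26b overlaps between the groups.

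Summed over the 3 genes, the family reached 311435 normalized reads in line 5-9, 256587 in line 2 and 247421 in line 16. The sums were 234301 in line 3, 250781 in line 19-1 and 177124 in line 19-4. The ratio of the PWS to the Control mean was 0.812, a log2 ratio of -0.30, beside a spread within groups of 0.23 (SD on the log2 scale), and the groups overlapped. No test was made on this sum.

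The low values of line 19-4 were shared by other miRNAs. Over 174 miRNA genes that averaged 100 normalized reads or more, the median deviation of line 19-4 from the mean of the other lines was -0.38 on the log2 scale, and that of line 5-9 was 0.29. The remaining lines lay between -0.022 and 0.097. On the same scale Mir26a was at -0.54 in line 19-4 and 0.45 in line 5-9, and Mir26b at -0.65 and 0.33. All were farther from 0 than these medians. The spread of the 174 genes around the medians was not computed, so this does not mark the miR-26 genes as unusual. The shifts of lines 19-4 and 5-9 were measured over miRNA genes only, and their part in the miR-26 values was not tested. Without line 19-4 the log2 fold change was -0.18 for Mir26a, -0.19 for Mir26a-2 and 0.051 for Mir26b. Without line 5-9 it was -0.21, -0.23 and -0.084 in the same order. Of the 255 miRNA genes tested, 176 had a lower and 79 a higher fitted level in PWS lines, with a median log2 fold change of -0.14, whereas the median of all 4292 genes was 0.0048.

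**Figure D2:**
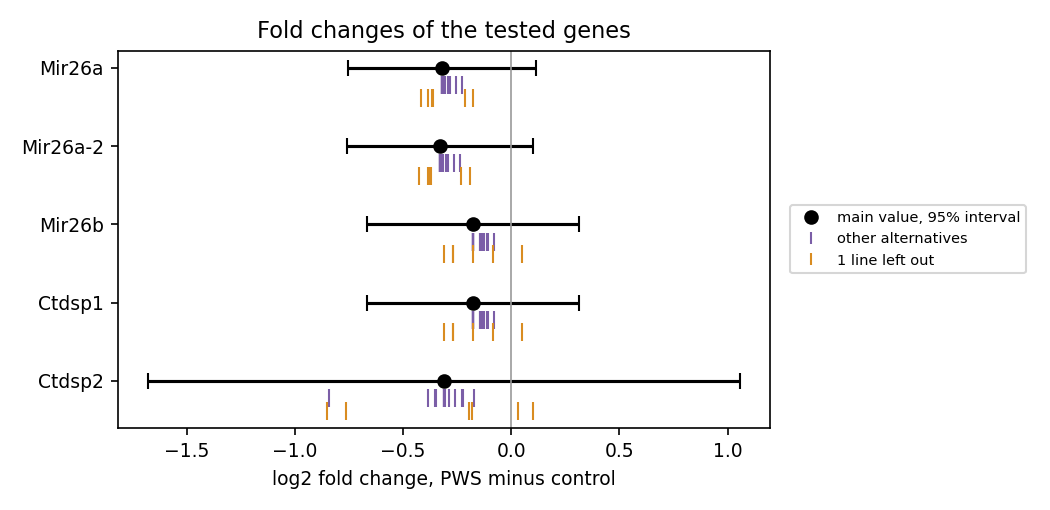
Log2 fold change, PWS minus Control, of each tested gene, with the limma value and its 95% interval (black), the other settings (purple) and the fits that leave out 1 line (orange). All 5 intervals include 0, and that of Ctdsp2, at few reads, runs from -1.68 to 1.06.

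Shares within the family do not depend on how libraries are scaled. Mir26b took 10.1% of miR-26 reads in line 5-9 (exact 95% binomial interval 9.98 to 10.2%), 10.8% in line 2 (10.7 to 10.9%) and 9.81% in line 16 (9.71 to 9.92%). It took 11.9% in line 3 (11.8 to 12.0%), 11.8% in line 19-1 (11.6 to 11.9%) and 10.1% in line 19-4 (9.92 to 10.2%). PWS lines 3 and 19-1 thus lay above every Control line by more than counting error, while line 19-4 lay within the Control range. The means were 10.2% ± 0.503 in Control and 11.2% ± 1.00 in PWS lines (SD, n = 3), and the difference of 1.01 percentage points did not pass an exact two-sided permutation test (p = 0.3, 0.45 after Benjamini-Hochberg adjustment over 3 shares). With 3 lines against 3 this test cannot go below 0.1. Put as a ratio, there were 8.79 ± 0.473 reads of miR-26a for each read of Mir26b in Control and 7.95 ± 0.844 in PWS lines (SD, n = 3). Intervals cover counting error only.

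The miR-26 family took 2.83% ± 0.190 of all miRNA reads in Control and 2.45% ± 0.336 in PWS lines (SD, n = 3; exact two-sided permutation p = 0.2, adjusted p = 0.45). Line 19-4 was the lowest at 2.06% and line 5-9 the highest at 2.98%. Lines 3 and 19-1, at 2.68% and 2.61%, stood beside Control line 16 at 2.61%, so the groups overlapped on this scale too.

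Reads of miR-26a were split almost evenly between the genes that encode it. The share of Mir26a in the sum of Mir26a and Mir26a-2 was 50.0% in line 5-9, 49.6% in line 2 and 49.5% in line 16. It was 50.0% in line 3, 49.9% in line 19-1 and 49.8% in line 19-4. In lines 2 and 16 the exact 95% interval lay below an even split, with upper ends of 49.9% and 49.7%, and in the other 4 lines it included it. The group means of 49.7% ± 0.283 and 49.9% ± 0.105 (SD, n = 3) gave an exact two-sided permutation p of 0.5 (adjusted p = 0.5). Neither gene lost a read under the option "none", which drops reads counted for more than 1 gene, so each read of miR-26a stood in 1 of the rows and their sum counts it once. How a read of the shared mature sequence was given to one gene or the other is not stated in the sources used here, so the likeness of the rows is no independent repeat.

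**Figure D3:**
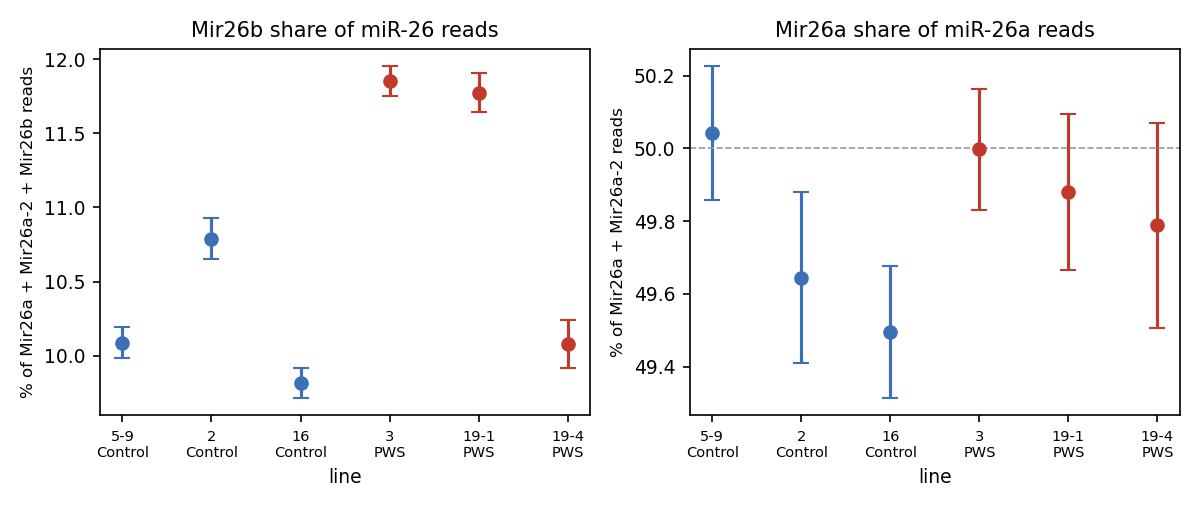
Left, percent of miR-26 reads in Mir26b for each line. Right, percent of miR-26a reads in Mir26a, with an even split dashed. Bars are exact 95% binomial intervals, and both vertical axes start above 0. Lines 3 and 19-1 lie above the other lines on the left.

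Of the 3 host genes, Ctdsp1 alone differed in reads between the counting options. With the option "all", a read that overlaps more than 1 gene is added to each of them, and with "none" it is left out. Under "all", Ctdsp1 held 31899, 21178 and 31472 reads in Control lines 5-9, 2 and 16 and 46771, 28109 and 13538 reads in PWS lines 3, 19-1 and 19-4. Mir26b held 31895, 21177 and 31471 reads and 46768, 28109 and 13538 reads in the same order. The counts of miRNA and host were thus equal to within 4 reads in every library.

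Under "none", Mir26b was listed at 0 in all 6 lines, and Ctdsp1 kept 4, 1 and 1 reads in Control lines 5-9, 2 and 16, and 3, 0 and 0 in PWS lines 3, 19-1 and 19-4. All 172958 reads of Mir26b had been counted for Ctdsp1 as well, and 9 of the 172967 reads of Ctdsp1 lay outside them. The value of 0 for Mir26b is therefore the result of the counting option and no measure of its level. In the counting annotation the Mir26b reads overlapped a counted feature of its host, although the gene is known as intronic. Among protein-coding genes recognised by symbol, Ctdsp1 ranked as number 1 by mean under "all", ahead of Snrpb at 9256 normalized reads, and as number 7967 under "none". The "all" row of Ctdsp1 is accordingly a second listing of Mir26b. Its log2 fold change of -0.18 ± 0.23 (SE; limma adjusted p of 0.918) measures the miRNA, not the host messenger RNA.

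Mir26a, Mir26a-2, Ctdsp2 and Ctdspl held the same reads under both options in every line. Their normalized values still moved slightly, because the authors' size factors were computed for each table. For Mir26a in line 5-9 the value was 140130 under "all" and 139466 under "none". This was enough to close the gap between the groups for Mir26a, whose highest PWS value stood 92.1 above the lowest Control value under "none".

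**Figure D4:**
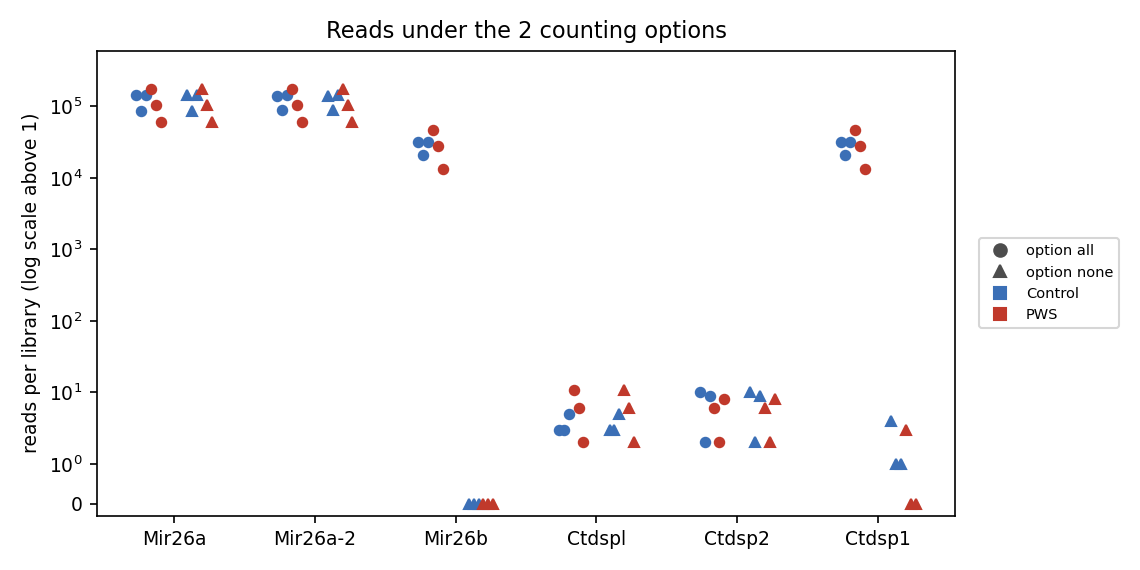
Reads per library under the option "all" (circles) and "none" (triangles) for the miR-26 genes and their hosts, on an axis that is logarithmic above 1 (Control blue, PWS red). Mir26b falls from 13538 reads or more to 0 and Ctdsp1 to at most 4, and the other genes do not move.

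Outside the miRNA sequences the hosts left few reads in these libraries, which were size selected for short RNAs. Ctdspl, host of Mir26a, had 3, 3 and 5 reads in Control lines 5-9, 2 and 16 and 11, 6 and 2 in PWS lines 3, 19-1 and 19-4. The ratio of PWS to Control, with reads pooled over each group and divided by its summed size factors, was 1.57, with an exact 95% counting interval of 0.710 to 3.65. It stayed under the filter of a mean of 5 normalized reads and was not tested in the main fit.

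Ctdsp2, host of Mir26a-2, had 10, 2 and 9 reads in Control lines 5-9, 2 and 16 and 6, 2 and 8 in PWS lines 3, 19-1 and 19-4. Its pooled ratio was 0.692, with an interval of 0.338 to 1.39. Ctdsp2 passed the filter, with a log2 difference of -0.31 ± 0.65 (SE) and a limma adjusted p of 0.950. This value was unstable: it turned to 0.029 without line 5-9 and 0.099 without line 19-1, and came to -0.85 without line 19-4, -0.76 without line 2, -0.20 without line 16, -0.18 without line 3 and -0.84 with limma-voom. For Ctdsp1, the 6 Control and 3 PWS reads that lay outside Mir26b gave a pooled ratio of 0.454, with an interval of 0.0735 to 2.13. All 3 intervals include equal levels and cover counting error only, not the spread between lines. The interval of Ctdsp2 over lines was wider, from -1.68 to 1.06 on the log2 scale, and a change up to either end is not excluded. Read numbers of hosts and miRNAs are not comparable as levels, since the genes differ in length and the hosts are present as fragments.

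Across the tested members no difference passed the test: limma called 0 of 4 (Mir26a, Mir26b, Ctdsp1 and Ctdsp2), and 0 had an unadjusted p under 0.05, while Ctdspl was not tested. As Ctdsp1 and Mir26b hold the same reads, these are 3 distinct measurements. The counts were also 0 of 4 with edgeR, DESeq2 and limma-voom. The background was 55 of 4292 genes called, or 1.28%, all of them lower in PWS lines, at an adjusted p under 0.1. Among miRNA genes 7 of 255 were called, or 2.75%. In the table counted with "none", limma called 0 of the 2 members tested there (Mir26a and Ctdsp2), against 1.33% of all genes.

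Other miRNAs described as intronic were paired with their hosts in the same way. For 18 of these pairs both genes were in the tables, and in all 18 the reads of miRNA and host were the same under both options. These 18 pairs came from a chosen list and involved 14 host genes. With the 3 miR-26 pairs this made 20 of 21, Mir26b with Ctdsp1 being the exception among the pairs listed. The pairs with the highest host means after Ctdsp1 were Mir7a1 with Hnrnpk, an RNA-binding protein, and the Mir106b, Mir93 and Mir25 cluster with Mcm7, a subunit of the replicative helicase. Hnrnpk had 83 reads beside 6274679 for Mir7a1. Mcm7 had 70 reads beside 1725216 for Mir93, 1769176 for Mir25 and 182447 for Mir106b. Over all genes listed, 18 of 350 miRNA genes with reads, or 5.14%, lost all of them under "none". Mir26b held the most reads of these, ahead of a gene with 37473.

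Genes described as miR-26 targets were read as messenger RNA fragments. Of 20 listed, 19 were in the table, 4 of them with no read (Tet1, Lin28b, Hmga2 and Cdk6), and 7 reached the filter. None of the 7 was called by limma in either direction, and the smallest adjusted p was 0.863. Their median log2 fold change was 0.14, against 0.0048 over all tested genes, with 5 fitted higher and 2 lower. Among the most abundant were Tdg, a DNA glycosylase, at -0.018 ± 0.46 (SE), and Tet3, a DNA demethylase, at 0.060 ± 0.47. With 74 and 69 reads over the 6 lines, these fragments gave wide errors.

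The relatives, partners and substrates of the Ctdsp phosphatases were as sparse. Of 14 genes listed, all were in the table, in 15 rows because Rcor1 is listed under 2 identifiers, and 2 rows were tested. Polr2a, the large subunit of RNA polymerase II, had a log2 fold change of 0.078 ± 0.43 (SE; limma adjusted p of 0.984). Smad2, a signal transducer of the TGF-β pathway, had 0.61 ± 0.58 (SE; limma adjusted p of 0.889). Rest had no read in any line. Ctdp1, another phosphatase of the polymerase, had 30 reads in all and was not tested.

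The genes whose profile over the 6 lines was closest to that of Mir26a were sought among 257 genes that averaged 1000 normalized reads or more. Likeness was the root mean square difference of log2 values, each gene centred on its own mean. Mir26a-2 was nearest at 0.011, followed by Mirlet7g at 0.073, Mirlet7d at 0.079, Mir30e at 0.092 and AY172581.14 at 0.095, against a median of 0.29 over these genes. For Mir26b the nearest was Ctdsp1 at 6.19e-05, which holds the same reads. Then came Mirlet7d at 0.056, Mirlet7g at 0.091, a Y_RNA gene (ENSRNOG00000060430) at 0.093 and Mir342 at 0.10, with a median of 0.31. Mirlet7d and Mirlet7g were thus near both members. These distances describe 6 lines, share their size factors and carry no test.

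**Figure D5:**
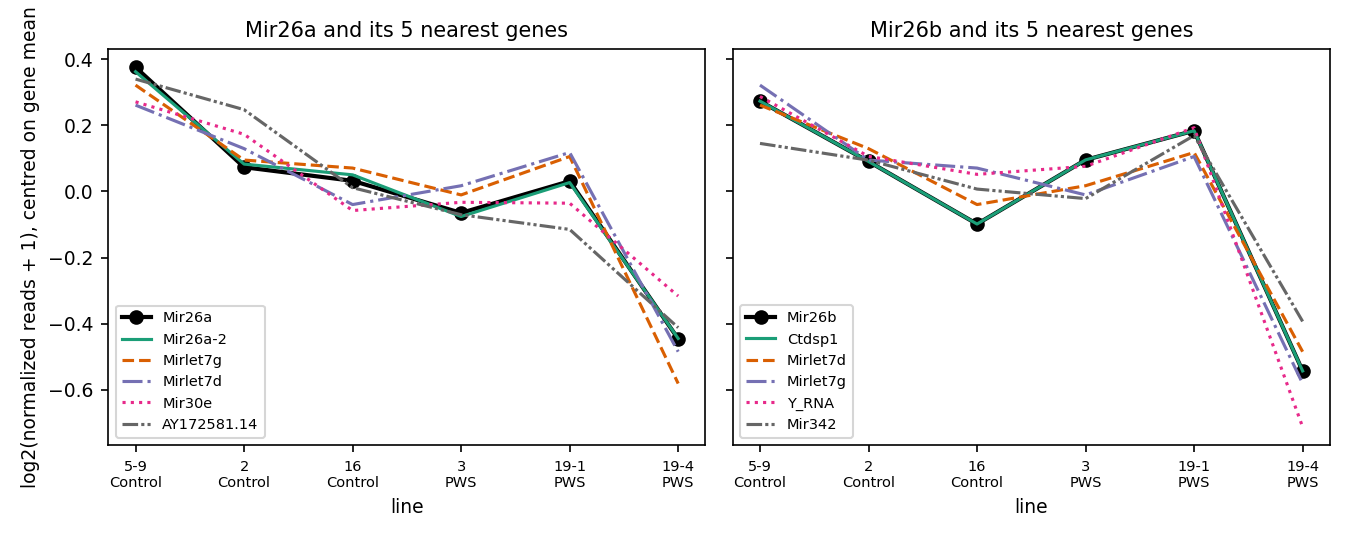
Log2(normalized reads + 1), centred on each gene's mean, in the 6 lines for Mir26a (left) and Mir26b (right) and the 5 genes nearest to each. Lines join the values of a gene and stand for no order. All of the profiles plotted are lowest in line 19-4.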

How the data were processed

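The authors made the libraries with a QIAseq miRNA kit that adds unique molecular identifiers, widened to RNAs below 200 nucleotides. The submitters' processing notes name UMI-tools 1.0.0, cutadapt 1.18, Bowtie2 2.3.4.2, featureCounts, HTSeq 0.11.2, DESeq2 and the build Rnor_6.0. For each library the authors deposited a signal: UMI-collapsed reads per gene, divided by the DESeq2 size factor of that library. All values above 0 (100%, tolerance 0.001) were whole multiples of the lowest value of their column, so whole reads were recovered. edgeR called 59 genes on them. A mean, a log2 fold change with its error, a p-value and an adjusted p-value, all from the authors' own comparison, were deposited too and were not used.

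The main table was that counted with "all". limma-trend (limma 3.58.1, R 4.3.3) was fitted to log2(normalized reads + 1) for genes averaging 5 or more, with genotype as the sole term, Benjamini-Hochberg adjustment over all genes and a threshold of 0.1. Shares were compared by exact permutation (scipy 1.17.1). Symbols were matched to RefSeq (GRCr8) for 17540 genes. The code was tested on simulated data. Alternatives were pseudocounts of 0.5 and 5, filters at 1 and 20 or none, TMM, upper-quartile and miRNA-sum scaling, edgeR 4.0.16, DESeq2 1.42.0, limma-voom, robust limma, the option "none", a stricter threshold (0.05), a block for replicate number, subclones averaged and each line left out. Genes were named as the members, Mir26a-2, the 3 most abundant genes of each list and any called, the 3 host pairs with the highest host mean, and the 5 genes nearest in profile. The values of 1 listed gene are not reported here. Members and lists were chosen with earlier results of these data known. Replicates are clonal lines, so p-values measure the spread between these lines.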

Additional observations from a re-analysis of the deposited data

How the results depend on the processing

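The count of called genes stayed within 1.5 times its value of 55 in all 22 alternatives, from 41 to 66, and from 44 to 58 when 1 line was left out. Mir26a and Mir26a-2 kept a lower fitted level in PWS lines in all 22, and no alternative called a tested member. The filters, the stricter threshold, robust limma and the replicate block cannot change the fold change of a gene, so they are no check of its direction. Adjusted p ranged from 0.722 to 1.00 for Mir26a, 0.718 to 1.00 for Mir26a-2, 0.856 to 1.00 for Mir26b and Ctdsp1, and 0.847 to 1.00 for Ctdsp2. When 1 line was left out, the log2 fold change ranged from -0.42 to -0.18 for Mir26a, -0.43 to -0.19 for Mir26a-2, -0.31 to 0.051 for Mir26b, -0.31 to 0.051 for Ctdsp1 and -0.85 to 0.099 for Ctdsp2. It changed sign without line 19-4 for Mir26b and Ctdsp1, and for Ctdsp2 without line 5-9, at 0.029, and without line 19-1. The cause was not tested. Among the other alternatives, Mir26b and Ctdsp1 came to -0.082 with miRNA-sum scaling and -0.11 with upper-quartile scaling or subclones averaged, and Ctdsp2 to -0.84 with limma-voom and -0.17 with a pseudocount of 5. Without a filter, or with a filter at a mean of 1, Ctdspl was tested as well, with a log2 fold change of 0.36 and limma adjusted p of 0.895 and 0.970.

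With the option "none" Mir26b has 0 reads and Ctdsp1 has 9, so neither was tested, and the difference in the Mir26b share is 0 by construction. The differences in share, PWS minus Control, ranged from 0.695 to 1.58 percentage points for Mir26b, 0.0447 to 0.318 for Mir26a and -0.492 to -0.185 for the family when 1 line was left out. The log2 ratio of the family total then ranged from -0.40 to -0.16. A replicate block gave 56 called genes. As each replicate number holds 1 line of each group, the block cannot move the log2 fold changes, which were -0.32 for Mir26a and -0.18 for Mir26b. Their limma adjusted p was 0.809 and 0.891 with it. The correlation of deviations between lines of one number was 0.414, 0.218 and -0.0574 over 1087 genes. Lines of unlike number were not compared, so these values cannot tell whether the numbers pair the lines.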
